A study of Solanum lycopersicum with 6 samples.

Results

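Xyloglucan endotransglucosylase/hydrolases (XTHs) are cell wall enzymes encoded by a large gene family in every flowering plant. Xyloglucan is the hemicellulose that coats and links cellulose microfibrils in the primary wall of tomato and other dicots. XTHs cut xyloglucan chains and join the cut end to another chain or, in some members, to water, and their activity is known from growing stems, where wall material has to be rearranged as cells extend. The members described here were 10 XTH genes given as a list of tomato identifiers, and all probes of these genes on the array were taken: 13 of 43803 probes, for 10 of the 34527 genes with a tomato identifier. The study describes 3 of the 10 as XTH genes: Solyc07g009380, which it calls SlXTH2, Solyc12g011030 and Solyc07g055990. It lists these as lower under negative DIF on the same arrays, so their direction is not independent evidence about the family. For the other 7 genes the sources used here hold no description, and their place in the family rests on the list alone. The list includes 4 genes with nearby identifiers on chromosome 3: Solyc03g093080, Solyc03g093110, Solyc03g093120 and Solyc03g093130. The chromosome of each gene was read from its identifier. Coordinates, exon structure and probe sequences were not used here.

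DIF is the day temperature minus the night temperature. Tomato (Solanum lycopersicum) seedlings, cultivar Managua RZ, were grown under positive DIF (30°C day, 25°C night) or negative DIF (25°C day, 30°C night) for 7 d with a 16 h photoperiod, and RNA was taken from the epicotyl, the stem above the cotyledons, at an age of 14 d. The study's growth scheme places sampling in the light period, so positive DIF seedlings were collected at 30°C and negative DIF seedlings at 25°C. Both treatments shared the same germination and light conditions and the same mean of the day and night settings, but not the same mean over a day, since the light period was longer than the dark period. Each treatment had 3 arrays, described as biological replicates, and each array was hybridised with 1 labelled sample. A whole epicotyl holds several cell types, and in such RNA fewer cells of a type and less RNA per cell cannot be told apart. No list of genes that define an epicotyl was at hand, so the labelled tissue was not checked.

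Between 62.2% and 67.0% of probes were well above background on an array, and no probe was saturated. Levels are given as log2 of the processed signal minus the 75th percentile of the array, so that 0 is the signal which 75% of the probes of an array do not exceed. Levels of different probes were not compared. The slides did not hold the treatments evenly: negative DIF replicates 1 and 2 were on slide 1, while negative DIF replicate 3 and all 3 positive DIF arrays were on slide 2. Negative DIF replicate 1 stood apart from the other 5 arrays on the low side. It had 114 probes, 7 of them XTH probes, more than 3 log2 units below every other array. Only probes well above background on the other 5 arrays were counted. The corresponding number was between 0 and 10 for each of the other arrays, with no XTH probe among them. Above all others by the same margin, and well above background, were 45 probes on negative DIF replicate 1 and 20 to 89 on each other array. Results that rest on negative DIF replicate 1 are given with and without it.

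Of the 13 XTH probes, 2 were lower under negative DIF at an adjusted p under 0.05 (limma, Benjamini-Hochberg adjustment over all probes), against 0.495% of all probes, and 0 were higher, against 0.425%. The methods' t-test, the plain test that the study's legends name for other experiments, gave 0 lower and 0 higher at the same threshold. Over all 43803 probes that test called only 17 lower and 12 higher. At an unadjusted p under 0.05, 4 XTH probes were lower, against 8.72% of all probes, and 0 were higher, against 10.2%. All 3 negative DIF values lay below all 3 positive DIF values for 5 XTH probes, against 12.4% of all probes, and the reverse held for 0, against 14.6%. The log2 fold change of negative against positive DIF was below 0 for 12 of 13 probes. Their median was -1.94, against 0.07 over all probes, but 7 of the 13 probes belong to the chromosome 3 group and do not vary separately. Without negative DIF replicate 1 the median of the 13 was -0.43, against 0.13 over all probes, and 3 XTH probes were lower at an unadjusted p under 0.05, against 7.15% of all probes. The 3 genes that the study picked on these arrays supplied both calls and 3 of the 5 probes whose treatments did not overlap. With 3 arrays in each treatment, the smallest p of an exact two-sided permutation test is 0.1, so limma was the main test of each probe.

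**Figure D1:**
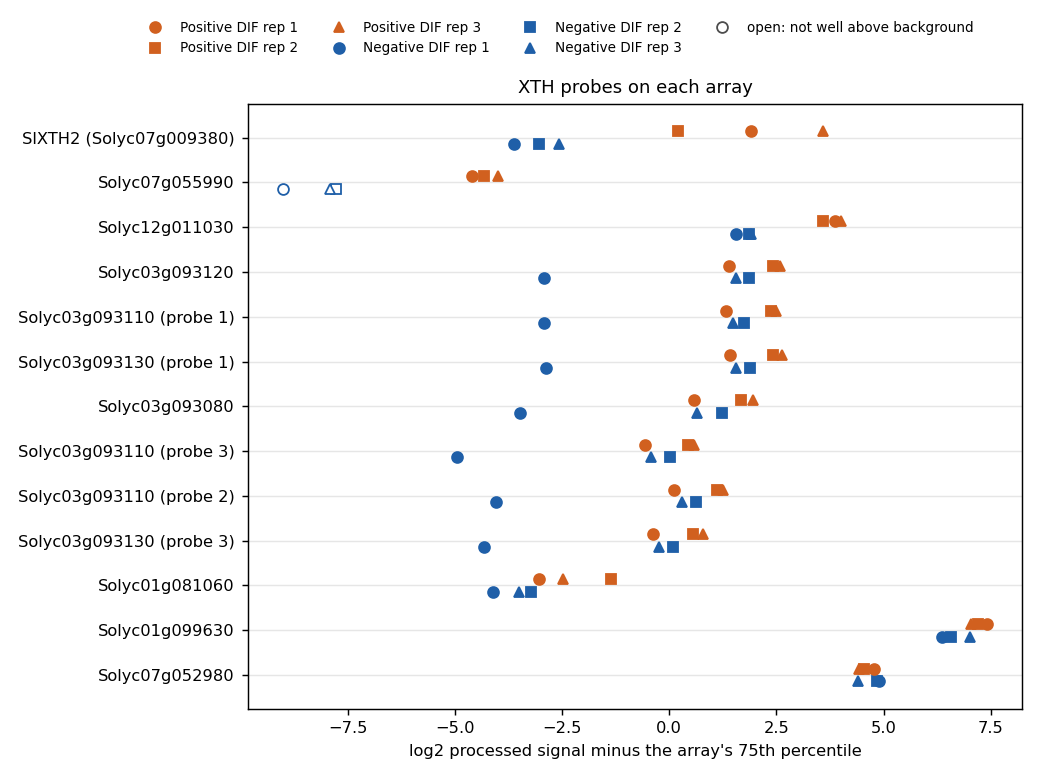
Level of each XTH probe on each array (log2 processed signal minus the 75th percentile of the array), with positive DIF in orange, negative DIF in blue and the replicate as the symbol; open symbols are not well above background. The treatments are separate for SlXTH2, Solyc07g055990, Solyc12g011030, Solyc01g081060 and, narrowly, Solyc01g099630, and the 7 chromosome 3 probes have negative DIF replicate 1 far to the left of the other 5 arrays.

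SlXTH2 (Solyc07g009380), the member that the study followed by name, had the largest difference of the 13 probes. By PCR the study also reported SlXTH2 as significantly lower under negative DIF, in epicotyls and in hypocotyls. Under negative DIF its log2 level was -3.62, -3.05 and -2.57, compared with 1.90, 0.21 and 3.60 under positive DIF. In processed signal these were 197, 230 and 264 under negative DIF and 5542, 1798 and 17855 under positive DIF. The treatments did not overlap, and every array measured the probe well above background. The negative DIF arrays lay close together, with an SD of 0.52, whereas the positive DIF arrays spread widely, with an SD of 1.69 (n = 3 each), with replicate 3 the brightest and replicate 2 the dimmest. The log2 fold change was -4.98 ± 0.83 (SE), with a 95% interval of -7.00 to -2.97, which is 31.6-fold lower at its centre. The unadjusted p was 8.38e-04 and limma's adjusted p 0.0576, which misses the threshold. Over the 16 alternative settings the fold change ranged from -5.83 to -4.14 and the adjusted p from 0.0122 to 0.601, and the adjusted p was below the threshold in 5 of them. Within slide 2 alone, where 1 negative DIF array is set against 3 positive DIF arrays and is taken to vary as they do, the difference was -4.48 (unadjusted p = 0.0266, adjusted p = 0.601, limma).

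Solyc12g011030 was the most evenly measured of the 3 genes that the study lists. Its log2 level was 1.56, 1.87 and 1.90 under negative DIF and 3.88, 3.58 and 4.0 under positive DIF. The processed signal was 7125, 6936 and 5871 against 21730, 18582 and 23606. Both treatments were tight, with SDs of 0.19 and 0.22 (n = 3 each), and they were far apart compared with that spread. The log2 fold change was -2.04 ± 0.20 (SE), a 4.12-fold fall, with an adjusted p of 0.0278 by limma. The size hardly moved between settings, from -2.16 to -1.92, while the adjusted p ranged from 0.00385 to 0.374, and within slide 2 the difference was -1.92 (adjusted p = 0.374, limma).

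Solyc07g055990 was well above background on all 3 positive DIF arrays and on 0 of 3 negative DIF arrays. Its processed signal was 61.2, 77.9 and 92.9 under positive DIF and 4.67, 8.70 and 6.49 under negative DIF, so it was a dim probe in both treatments. On the log2 scale this was -4.60, -4.32 and -3.99 against -9.01, -7.77 and -7.92, without overlap. The fitted log2 fold change of -3.93 ± 0.38 (SE; adjusted p = 0.0275, limma) is therefore no measured size. Set against the lowest signal that was well above background on each negative DIF array, the level was 4.97-fold lower. It was 2.25-fold lower after normexp background correction, which models the background of each array and adds an offset. A signal above that lowest one can still be not well above background, so these values are no strict lower limit. The fitted value was -1.32 with normexp and -1.75 in the authors' deposited log2 values. Within slide 2 it was -3.62 (adjusted p = 0.237, limma).

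The 2 calls did not hold in every setting. With slide as a fixed term, within slide 2, with the methods' t-test on the same values, or with any 1 array left out other than negative DIF replicate 3, neither gene had an adjusted p under 0.05, although the unadjusted p stayed at 0.00298 or less throughout. With slide as a fixed term, within slide 2 or without negative DIF replicate 1, 0 of the 43803 probes passed the adjusted threshold, so these settings called nothing anywhere on the array.

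Solyc01g081060 had a smaller difference that did not pass. Its log2 level was -4.10, -3.22 and -3.52 under negative DIF and -3.04, -1.35 and -2.47 under positive DIF. The treatments did not overlap, but negative DIF replicate 2 and positive DIF replicate 1 were close to each other. The log2 fold change was -1.33 ± 0.47 (SE), and limma gave it an unadjusted p of 0.0298 (adjusted p = 0.209). Without negative DIF replicate 1 it was -1.08 (unadjusted p = 0.0952, limma), without negative DIF replicate 3 -1.38 (0.0574), without positive DIF replicate 2 -0.86 (0.0576), without positive DIF replicate 3 -1.42 (0.053), and within slide 2 -1.23. The unadjusted p was under 0.05 in 9 of the 16 alternative settings, among them normexp (0.0114) and the deposited values (0.018; limma). The adjusted p stayed at 0.0893 or more.

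Solyc01g099630 and Solyc07g052980 were bright on every array. Solyc01g099630 had log2 levels of 6.35, 6.57 and 7.03 under negative DIF and 7.42, 7.20 and 7.04 under positive DIF. Negative DIF replicate 3 and positive DIF replicate 3 were almost level, and the remaining arrays of the treatments were apart. The log2 fold change was -0.57 ± 0.24 (SE; unadjusted p = 0.0517, adjusted p = 0.269, limma), and within slide 2 it was -0.20. The unadjusted p was under 0.05 in 7 of the 16 alternative settings, among them quantile normalization (0.0383) and normexp (0.0206; limma). The adjusted p stayed at 0.101 or more. The separation depended on the scaling of the arrays: processed signals before scaling were 197746, 180200 and 204812 against 253626, 228201 and 194597, which overlap.

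Solyc07g052980 was the only member with a log2 fold change above 0. Its levels were 4.90, 4.86 and 4.41 under negative DIF and 4.77, 4.54 and 4.43 under positive DIF, and the treatments overlapped. The log2 fold change was 0.14 ± 0.22 (SE; adjusted p = 0.829, limma), with a 95% interval from -0.38 to 0.67, and it was -0.17 with slide as a fixed term or within slide 2. The arrays therefore left room for a change of that range in either direction. By comparison, SlXTH2 and Solyc12g011030 had intervals wholly below that of Solyc07g052980, although the differences between members were not tested.

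**Figure D2:**
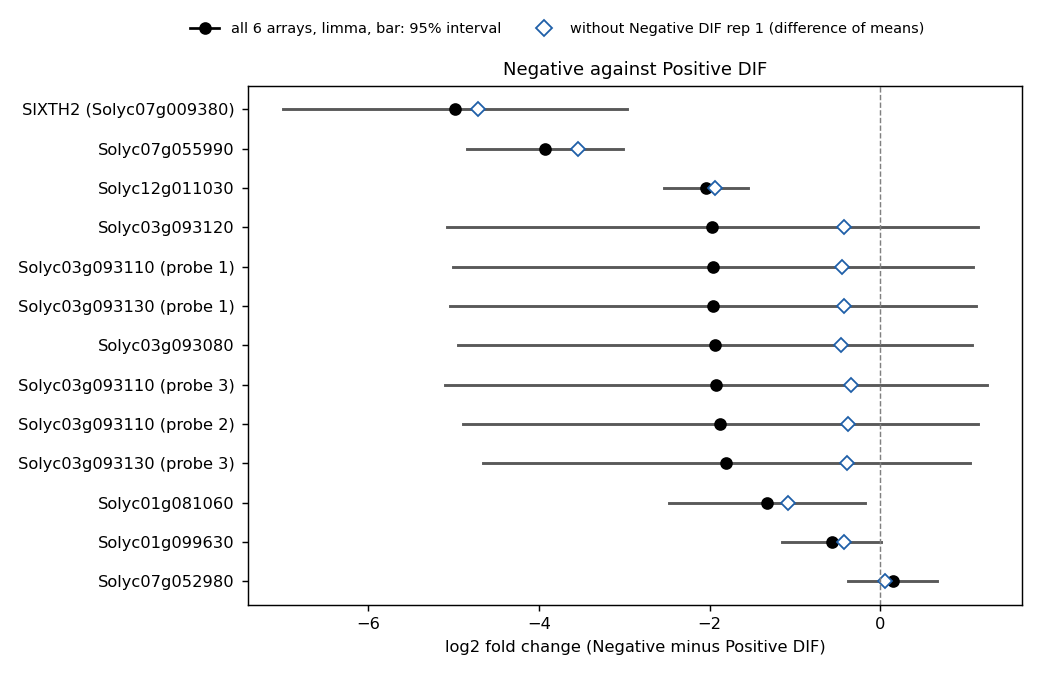
Log2 fold change of each XTH probe, negative minus positive DIF: black points and bars are the limma estimate and its 95% interval over all 6 arrays, open diamonds the difference of means without negative DIF replicate 1. The 7 chromosome 3 probes move from between -1.97 and -1.80 to between -0.46 and -0.34 when that array is left out, while SlXTH2 moves from -4.98 to -4.72.

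The 4 chromosome 3 genes, with 7 probes, gave a single pattern that was set by 1 array. For Solyc03g093120 the log2 level was -2.93, 1.85 and 1.57 under negative DIF, compared with 1.38, 2.43 and 2.59 under positive DIF. Its processed signal was 318, 6866 and 4656 against 3865, 8345 and 8866. Negative DIF replicate 1 was the lowest by far, and negative DIF replicates 2 and 3 lay inside the range of the positive DIF arrays. Solyc03g093080 had levels of -3.49, 1.23 and 0.65 against 0.58, 1.68 and 1.96. For the first listed probe of Solyc03g093110 the levels were -2.92, 1.75 and 1.48 against 1.33, 2.37 and 2.50, and for the first of Solyc03g093130 they were -2.87, 1.89 and 1.56 against 1.42, 2.42 and 2.62. The order of the other 5 arrays was the same in all 7 probes: positive DIF replicates 3 and 2 at the top, then negative DIF replicates 2 and 3, and positive DIF replicate 1 at the bottom.

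All 7 probes had a log2 fold change between -1.97 and -1.80 with an SE between 1.18 and 1.31. The unadjusted p lay between 0.167 and 0.191 and limma's adjusted p between 0.469 and 0.502, and the treatments overlapped for every probe. In negative DIF replicate 1 the probes lay between 3.94 and 4.37 log2 units, or 15.3-fold to 20.6-fold, below the lowest of the other 5 arrays, which themselves spanned only 1.15 to 1.38 units. Without that array the difference fell in size to between -0.46 and -0.34. The difference between the treatments was therefore not detectable in these 4 genes, with or without the array. All 7 probes were well above background on all 6 arrays, negative DIF replicate 1 included.

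How alike the probes were was measured as the root mean square (RMS) difference of their log2 levels over the 6 arrays, each probe centred on its mean. The 17 pairs of probes from different chromosome 3 genes had RMS differences of 0.0246 to 0.184, with a median of 0.103. The 4 pairs of probes from the same gene had 0.0503 to 0.141. Over all 2891 pairs of probes for the same gene on the array that were compared, the median was 0.0800, with quartiles of 0.0469 and 0.159. Probes of different genes in this group thus followed each other about as closely as different probes of a single gene do on these arrays. Without the probe sequences it cannot be told whether 4 transcripts were measured or fewer. The 7 probes are counted with that limit in mind, and they do not stand for 7 observations.

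Neighbouring loci did not show the pattern. Among the other 12 genes of the array numbered from Solyc03g093040 to Solyc03g093190, with 15 probes, 3 probes were well above background on all 6 arrays and 10 on none. In those 3 probes, negative DIF replicate 1 was at most 0.136 log2 units below the other 5 arrays. Solyc03g093140, which follows the group by number, had levels of 3.17, 4.23 and 3.47 under negative DIF and 2.24, 2.65 and 2.21 under positive DIF. The fitted change of 1.26 ± 0.32 (log2, SE; adjusted p = 0.114, limma) had the opposite sign. The other 2, Solyc03g093160 and Solyc03g093180, overlapped between treatments. These 3 genes were named after their values were seen.

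**Figure D3:**
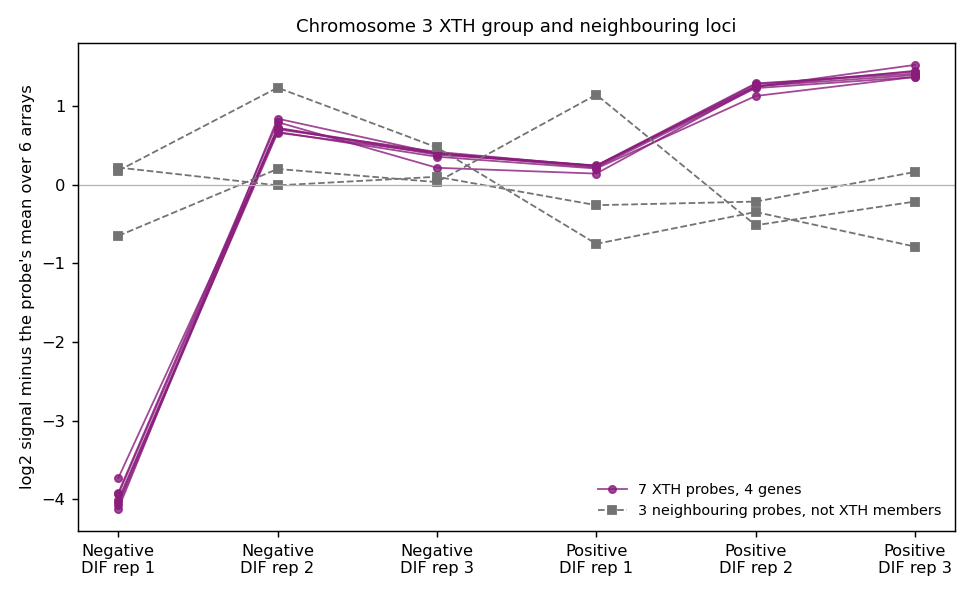
Log2 level of each probe minus its mean over the 6 arrays, by array: the 7 XTH probes of the chromosome 3 group (solid) and the 3 neighbouring probes that were well above background on every array (dashed). The 7 XTH lines lie almost on top of each other and drop only in negative DIF replicate 1, where the neighbours do not.

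None of the 6 members outside the chromosome 3 group had negative DIF replicate 1 more than 3 log2 units below the rest. From the brightest to the dimmest positive DIF array, the chromosome 3 probes and Solyc07g055990 ran in the order replicate 3, 2, 1. SlXTH2 and Solyc12g011030 ran in the order 3, 1, 2, Solyc01g081060 in the order 2, 3, 1, and Solyc01g099630 and Solyc07g052980 in the order 1, 2, 3. Solyc07g055990 also shared the order of the negative DIF arrays with the chromosome 3 probes, but these values were not well above background, and its treatments were separate where theirs overlapped. SlXTH2 was compared with the others among 24390 probes, itself included, that had a tomato identifier and were well above background on every array. Its nearest was at an RMS difference of 0.958. Among the members, Solyc12g011030 was rank 129 (1.71), the chromosome 3 probes lay between ranks 1119 and 1529, and Solyc07g052980 was at rank 15164 (2.79). These ranks reflect the size of the change as well as its pattern over the arrays.

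The 5 genes nearest to SlXTH2 over the 6 arrays are described in the study's list of lower genes as a FAD-binding protein (Solyc02g079480, RMS difference 0.958), a subtilisin-like protease (Solyc04g078110, 0.971), a peroxidase (Solyc02g092580, 0.999), a laccase (Solyc06g076330, 1.04) and an acid phosphatase (Solyc06g062390, 1.05). Peroxidases and laccases act in the wall, where they oxidise phenolic compounds. The protease had levels of -1.94, -1.37 and -0.33 against 1.90, 1.85 and 3.22, and its adjusted p was 0.0523 (limma). The distances are near 1 log2 unit, but they depend on the size of a change as well as on its pattern. The FAD-binding protein, the protease and the peroxidase had the 6 arrays in the same order as SlXTH2. For the laccase and the acid phosphatase the order differed.

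The study's lists, chosen on these same arrays, describe 3 further XTH genes, so their direction is not independent evidence. All 3 were lower under negative DIF without overlap (12.4% of all probes), each at an unadjusted p under 0.05 (8.72%). In limma 0 passed the adjusted threshold (0.495%). The methods' t-test also gave 0, and over all 43803 probes it called only 17 lower. Solyc05g005680 had levels of -1.33, -1.58 and -1.01 against 0.97, 1.39 and 2.64, a log2 fold change of -2.97 ± 0.45 (SE; adjusted p = 0.0504, limma). Solyc04g008210 had -2.96, -2.32 and -1.95 against -0.51, -0.58 and -0.71, a fold change of -1.81 ± 0.29 (adjusted p = 0.0532). Solyc09g092520 had -1.08, -0.76 and -0.88 against 1.30, 0.17 and 1.95, a fold change of -2.05 ± 0.45 (adjusted p = 0.091). As with SlXTH2, positive DIF replicate 3 was the brightest array for Solyc05g005680 and Solyc09g092520. All 3 passed the adjusted threshold in 5 alternative settings, the authors' deposited values among them.

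Other wall genes that the study names or describes were set beside the family, with the same limit that most were picked on these arrays. Of 12 probes, 5 were lower and 7 higher at an unadjusted p under 0.05, against 8.72% and 10.2% of all probes. At an adjusted p under 0.05, 2 were lower and 0 higher (limma), against 0.495% and 0.425%. These counts moved with the setting, to 0 and 0 with the methods' t-test, 4 and 7 with normexp and 5 and 6 in the deposited values. Expansins loosen the contacts between cellulose and hemicellulose. SlEXP1 (Solyc06g051800) had levels of 0.43, 0.68 and 0.62 against 1.73, 2.29 and 2.21 and fell by 1.5 on the log2 scale (SE 0.22, adjusted p = 0.0484, limma). SlEXP2 (Solyc06g049050) had 1.92, 1.98 and 1.94 against 3.42, 2.86 and 2.56, a difference of -1.0 (adjusted p = 0.117). Both were less changed in size than SlXTH2, and the study also reported both as lower in epicotyls by PCR.

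Cellulose is the polymer that xyloglucan coats. The list of cellulose synthases held 5 genes, 1 of them described as cellulose synthase-like C, a type that makes the glucan backbone of xyloglucan in Arabidopsis. All 5 had higher levels under negative DIF without overlap, against 14.6% of all probes. They were taken from the study's lists, chosen on these same arrays, so their direction is not independent evidence. Solyc08g082640, Solyc08g082660 and Solyc08g082670 have nearby identifiers, and whether their probes vary separately was not tested. The log2 fold changes ran from 1.51 to 2.19 and the adjusted p from 0.066 to 0.0899 (limma), so that none passed the adjusted threshold. Solyc08g082640 had levels of 1.62, 1.4 and 0.83 against 0.10, -0.55 and -0.59, and Solyc08g082660 had 2.52, 2.46 and 1.96 against 1.26, 0.58 and 0.13. The cellulose synthase-like gene, Solyc05g055410, named after its values were seen, had -0.69, 0.05 and -0.55 against -1.76, -2.56 and -3.44, a fold change of 2.19 ± 0.46 (SE; adjusted p = 0.0827). No gene of xyloglucan side-chain synthesis was described in the sources used here.

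Pectinesterases, which remove methyl groups from pectin, were split. At an unadjusted p under 0.05 (limma), 2 of 4 were lower and 2 higher, against 8.72% and 10.2% of all probes. Solyc10g076730 had levels of -0.01, 0.10 and 0.35 against 1.67, 1.88 and 2.04 and fell by 1.72 (adjusted p = 0.0341, limma). Solyc10g083820 had -5.12, -5.26 and -5.69 against -4.02, -3.04 and -2.57, a difference of -2.15 (adjusted p = 0.066). The single endoglucanase, Solyc04g064900, an enzyme class that cuts glucans within the chain, had -6.80, -7.32 and -6.55 against -3.47, -4.75 and -2.13 (-3.44 ± 0.65, SE; adjusted p = 0.0677), and only 1 of its 3 negative DIF arrays was well above background. SlXTH2 and both expansins lay lower under negative DIF in the same libraries in which the cellulose synthase probes lay higher. Most of these genes were picked on these arrays.

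Laccases, which polymerise lignin in the xylem, were taken from the study's lists, chosen on these same arrays, so their direction is not independent evidence. Of the 6 laccases that the study describes, 5 were lower (0.495% of all probes) and 0 higher (0.425%) at an adjusted p under 0.05 (limma). The remaining laccase was higher at an unadjusted p under 0.05 (10.2% of all probes). The summed signal of all 6, relative to the 75th percentile of each array, was 1.69, 1.46 and 1.13 under negative DIF and 4.08, 7.29 and 8.27 under positive DIF. On each negative DIF array, 4 or 5 of the 6 were well above background. Solyc02g080670, the laccase that was higher, supplied 1.498, 1.29 and 0.916 of the negative DIF sums. Without it the other 5 summed to 0.189, 0.165 and 0.211 against 3.45, 6.95 and 7.985, a split made after the values were seen. The ubiquitin homolog used as a housekeeping gene in the study's PCR, Solyc01g056940, had log2 fold changes of 0.55 (unadjusted p = 0.043) and 0.47 (0.0706; limma) for its 2 probes, both without overlap and higher under negative DIF, in the direction opposite to most XTH probes. The part of tissue makeup or array scaling in the XTH differences was not tested. Slide and treatment cannot be told apart for negative DIF replicates 1 and 2.

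**Figure D4:**
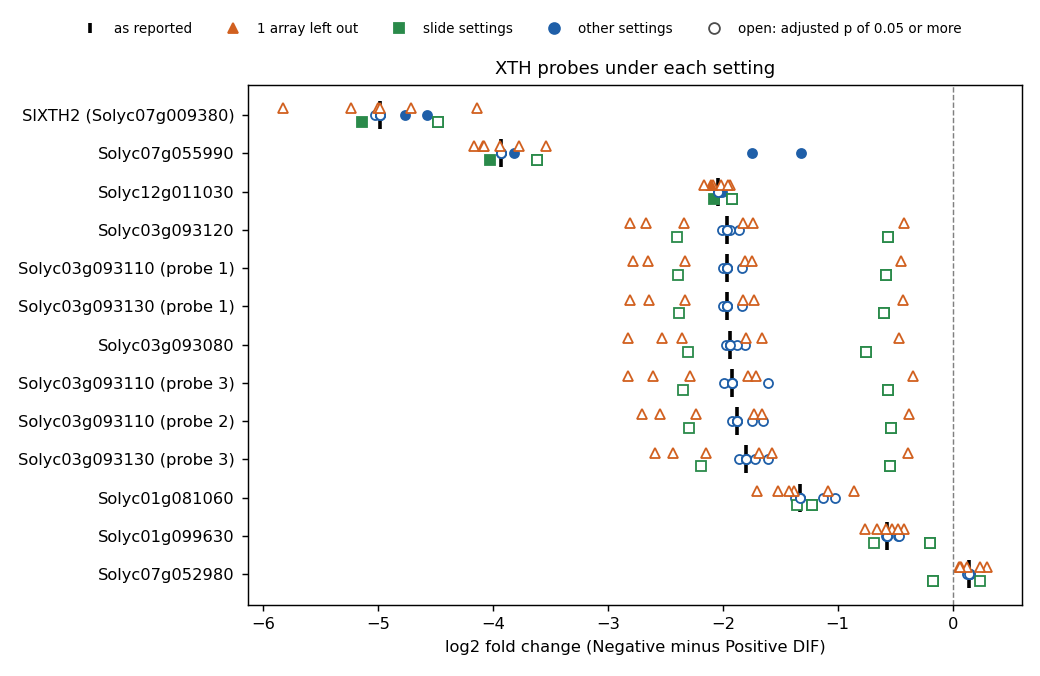
Log2 fold change of each XTH probe (negative minus positive DIF) as reported (black bar), with 1 array left out (orange triangles), with slide as a block or within slide 2 (green squares) and in other settings (blue circles); filled symbols have an adjusted p under 0.05. Every setting keeps SlXTH2, Solyc12g011030 and Solyc07g055990 below 0, and Solyc07g052980 lies on both sides of 0.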

How the data were processed

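Epicotyl RNA of 6 samples was labelled with a single dye and hybridised by the authors to a custom tomato Agilent array. The authors deposited Feature Extraction 10.10.1.1 output for each array, whose processed signal intensity is background-subtracted within the array and not scaled between arrays. They also deposited a table of log2 values for 33614 genes, whose normalization is not given in the sources used here. The heading over its columns names the treatments the other way round from the study's supplementary tables, which were followed. Its rows for Solyc03g093110 and Solyc03g093130 hold another probe than the one listed and were set beside the probe that they match. No columns of comparisons were used.

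After removal of control spots and flagged outlier spots, the log2 processed signal was scaled by subtracting its 75th percentile on each array, and treatment was fitted over 43803 probes with limma 3.58.1 (lmFit, eBayes) in R 4.3.3, with Benjamini-Hochberg adjustment. No filter on dim probes was used. The number of arrays, 3 a treatment, limits the precision. Probes of a gene were kept apart. The scripts were tested on simulated data. Plots and tables used Python 3.11.15, pandas 2.3.3, numpy 2.4.6 and matplotlib 3.10.9. The alternatives were Student's t-test with equal variances (named in the study's legends for other experiments, and called the methods' t-test), quantile normalization, normexp (offset 50), a dim-probe filter (26942 probes left), a trended and robust eBayes, the deposited values, slide and replicate number as blocks, slide 2 alone, a size threshold of 1, and each array left out.

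All members were named, then the 3 further XTH genes, the 2 smallest p-values of each wall list, the 5 genes nearest to SlXTH2 and the housekeeping gene. Members, lists and tests were chosen with earlier results of these data known. Gene descriptions came from the study's lists, since the gene table at hand could not be paired with tomato identifiers, so leaf and meristem marker lists, wider wall lists and sequence comparisons were not run.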

Additional observations from a re-analysis of the deposited data

How the results depend on the processing

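Of 205 values of single XTH probes under alternatives, 180 kept their direction and side of the adjusted threshold, 18 lost the threshold (Solyc12g011030 and Solyc07g055990), 5 gained it (SlXTH2) and 2 changed sign: Solyc07g052980, -0.17 both with slide as a fixed block and within slide 2. The count of XTH probes lower at an adjusted p under 0.05, 2 as reported, was 0 with Student's t-test, with slide as a fixed block, within slide 2 and with the replicate block, between 0 and 2 with 1 array left out, 2 with quantile normalization and 3 with normexp, the dim-probe filter, trend and robust, the deposited values and slide as a random block. The further XTH genes, 0 of 3 as reported, gave 1 with quantile normalization, 3 with normexp, the dim-probe filter, trend and robust, the deposited values and slide as a random block, and between 0 and 1 with 1 array left out. Wall list probes lower, 2 as reported, were 4 with normexp and the dim-probe filter, 5 with trend and robust, the deposited values and the random block, 0 with Student's t-test, the fixed block, within slide 2 and the replicate block, and between 0 and 1 with 1 array left out. Wall list probes higher, 0 as reported, were 7 with normexp and 6 with the dim-probe filter, trend and robust, the deposited values and the random block, and those at an unadjusted p under 0.05, 7 as reported, were 3 within slide 2. Over all probes, 217 were lower and 186 higher as reported, against 1129 and 970 with normexp, 695 and 571 with quantile normalization, 1038 and 955 with the dim-probe filter, 921 and 889 with trend and robust, 1173 and 1127 in the deposited values, 1527 and 1490 with the random block, 17 and 12 with Student's t-test, and 0 and 0 with the fixed block, within slide 2 and with the replicate block. Normexp moved the median of all probes from 0.07 to -0.20. Same-numbered arrays of the treatments correlated at 0.006, 0.04 and 0.22, and differently numbered ones between -0.351 and 0.318. The numbers thus gave no sign of pairing, but 3 arrays a treatment are too few to settle it. With the replicate block, Solyc03g093080 had an unadjusted p of 0.0475 (adjusted p = 0.297, limma). The other chromosome 3 probes had an unadjusted p of 0.0531 or more. The difference without negative DIF replicate 1 was added as a separate value after the data were seen. The random block used an estimated correlation of -0.216. Dim probes such as Solyc07g055990 carry no measured size, and 3 arrays a treatment limit every size given.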

Other observations

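The pattern of the chromosome 3 XTH genes was not confined to chromosome 3. Of the 114 probes that lay more than 3 log2 units below all other arrays in negative DIF replicate 1, 19 were on chromosome 3, and the probes represented 88 genes with a tomato identifier. The probes nearest to the mean centred profile of the 7 XTH probes, looked up after the values were seen, were those of Solyc10g084880 and Solyc09g082230, for which no description was at hand. Solyc10g084880 (RMS difference 0.24) had processed signals of 68.6, 1751 and 1432 under negative DIF and 990, 2045 and 1686 under positive DIF. Solyc09g082230 (0.27) had 33.5, 432 and 380 against 356, 818 and 601. In both, negative DIF replicate 1 was the lowest array by more than 4 log2 units.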
